A study of Arabidopsis thaliana with 10 samples.

Results

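The genes described here are CBF1, CBF2, CBF3, ZAT6, ZAT10, ZAT12, TCH2 and TCH3, 8 rapid cold and touch response genes of Arabidopsis thaliana that were chosen by name and locus. Of these 8 genes, 5 have a row in both expression tables, which list 17371 genes at 4 h and 17433 genes at 10 d. The 5 are ZAT6 (AT5G04340), ZAT10 (AT1G27730), ZAT12 (AT5G59820), TCH2 (AT5G37770) and TCH3 (AT2G41100). The other 3, CBF1 (AT4G25490), CBF2 (AT4G25470) and CBF3 (AT4G25480), have no row in either table, so no level and no change is given for them.

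The study measured polyA RNA of whole Col-0 seedlings by RNA-seq in 5 groups of 2 libraries each. All 5 groups received dexamethasone, a synthetic steroid that activates transgenes built to respond to glucocorticoids. In the first experiment, seedlings of the lines titled DIG1, DIG2 and GFP were grown in darkness for 3 d and given 10 µM dexamethasone for 4 h, still in the dark. In the second, light-grown DIG1 and GFP seedlings stayed for 10 d, in long days, on plates with 500 nM dexamethasone. In the series the DIG genes are presented as encoding ABA-responsive transcription factors (ABA, abscisic acid, is a plant hormone of water shortage and of dormant seeds), and the GFP line (green fluorescent protein) is the one the authors compared the others with. Every group was treated, so a difference between lines that existed before dexamethasone cannot be told apart from an effect of induction. The transgene promoter and the number of independent lines are not given in the sources used here, and nothing there says that the replicates came from separate cultures, so each p-value reflects the spread among these libraries alone, part or all of which may be technical.

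As background, the CBF genes encode AP2-domain transcription factors that are switched on soon after a drop in temperature and that bind the CRT/DRE element, with the core CCGAC, in the promoters of cold-regulated (COR) genes. ZAT6, ZAT10 and ZAT12 encode small zinc finger proteins of the C2H2 class, induced in parallel with the CBF genes by cold and also by wounding, oxidative stress and salt. TCH2 and TCH3 were found as genes whose transcripts rise after plants are touched, and both encode calmodulin-like proteins (CML24 and CML12) that bind calcium.

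In the dark-grown seedlings none of the 5 measured genes passed the test against GFP (limma, adjusted over all genes), in DIG1, where 3.01% of all genes were called higher and 5.54% lower, or in DIG2, where the shares were 7.37% and 7.48%. In the light-grown seedlings all 5 passed it. TCH3, ZAT10, ZAT6 and ZAT12 were higher in DIG1 than in GFP, by 11.7-fold, 9.49-fold, 8.88-fold and 5.68-fold. TCH2 was lower, at 0.475-fold. The folds come from log2(RPKM + 0.5), a scale described below that understates the change of genes with low values. These results stand against a comparison in which 31.9% of all genes were called higher and 31.2% lower.

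In the TAIR10.1 annotation, ZAT6 lies on chromosome 5 from 1216058 to 1217362 (minus strand) and ZAT10, there named STZ, on chromosome 1 from 9648021 to 9649323 (minus strand). ZAT12, there named RHL41, lies on chromosome 5 from 24102814 to 24103794 (plus strand). TCH2 lies on chromosome 5 from 14997514 to 14999619 (minus strand) and TCH3 on chromosome 2 from 17137037 to 17139700 (plus strand). The CBF genes without values lie next to each other on chromosome 4, all on the minus strand, with CBF2 from 13015250 to 13016235, CBF3 from 13018010 to 13019400 and CBF1 from 13021780 to 13022996.

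The 250 bases before the annotated start of each measured gene are printed below because ZAT6, ZAT10, ZAT12 and TCH3 moved in one direction and TCH2 in the other. They are read 5′ to 3′ on the strand of the gene, from the RefSeq genome and annotation, build TAIR10.1, at chr5:1217363-1217612 (ZAT6), chr1:9649324-9649573 (ZAT10), chr5:24102564-24102813 (ZAT12), chr5:14999620-14999869 (TCH2) and chr2:17136787-17137036 (TCH3). Capitals mark every match, on either strand, to 4 short motifs that are known cores of stress-responsive elements. These are ACGTG (core of the ABA-responsive element), CCGAC (CRT/DRE core, bound by CBF proteins), CGCGT (core bound by CAMTA calmodulin-binding factors) and TTGAC (W-box core, bound by WRKY factors).
ZAT6: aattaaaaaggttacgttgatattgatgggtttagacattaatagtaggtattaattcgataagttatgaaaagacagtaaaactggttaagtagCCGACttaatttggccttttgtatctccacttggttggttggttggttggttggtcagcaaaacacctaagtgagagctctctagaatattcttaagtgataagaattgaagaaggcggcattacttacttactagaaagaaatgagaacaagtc
ZAT10: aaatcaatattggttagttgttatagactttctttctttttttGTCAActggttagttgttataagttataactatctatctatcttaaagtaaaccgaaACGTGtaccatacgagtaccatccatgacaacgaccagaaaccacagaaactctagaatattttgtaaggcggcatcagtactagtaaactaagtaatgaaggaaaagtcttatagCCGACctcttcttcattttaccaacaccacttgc
ZAT12: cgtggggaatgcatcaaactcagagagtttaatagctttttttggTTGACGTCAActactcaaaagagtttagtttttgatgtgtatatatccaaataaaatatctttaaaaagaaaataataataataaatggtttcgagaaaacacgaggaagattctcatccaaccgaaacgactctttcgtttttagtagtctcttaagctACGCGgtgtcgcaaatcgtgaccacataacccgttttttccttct
TCH2: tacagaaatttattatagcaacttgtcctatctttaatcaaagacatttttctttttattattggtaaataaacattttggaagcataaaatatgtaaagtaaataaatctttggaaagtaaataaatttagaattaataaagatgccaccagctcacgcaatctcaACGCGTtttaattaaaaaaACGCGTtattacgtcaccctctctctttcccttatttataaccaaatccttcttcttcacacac
TCH3: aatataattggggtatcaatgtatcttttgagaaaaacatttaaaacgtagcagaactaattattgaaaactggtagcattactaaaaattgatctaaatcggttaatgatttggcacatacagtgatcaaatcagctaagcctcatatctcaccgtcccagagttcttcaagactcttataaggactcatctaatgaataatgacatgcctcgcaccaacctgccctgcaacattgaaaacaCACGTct

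CCGAC was found in the windows of ZAT6, 155 bases before the start, and ZAT10, 34 bases before it, and in 13.1% of the windows of the 18343 listed genes that have one. ACGTG was found in ZAT10, 150 bases before the start, and on the other strand in TCH3, where its match begins 7 bases before the start; 23.8% of all windows hold it. TTGAC was found on the other strand of ZAT10 and on both strands of ZAT12, where the matches adjoin without overlap in the run TTGACGTCAA, against 44.8% of all windows. CGCGT was found on the other strand of ZAT12, 45 bases before the start, and in TCH2, against 7.29% of all windows. In TCH2 the run ACGCGT occurs at 2 places and reads alike on both strands, so it counts as 4 matches. No motif was common to the 4 genes that were higher in DIG1 at 10 d. These matches describe the letters in the windows only and show no binding.

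Levels are in RPKM, read numbers that the authors divided by gene length and sequencing depth, so they can be compared between genes within a table. The 2 tables were normalized separately, and no level is compared between 4 h and 10 d. Changes are differences of log2(RPKM + 0.5) with their standard error (SE), tested with limma across all genes of a table; a gene is called where the Benjamini-Hochberg adjusted p is under 0.05. This scale understates the change of genes with low values.

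At 4 h and 10 d the genes known as DIG1 (AT3G48510) and DIG2 (AT5G50360) checked the line labels. AT3G48510 ranged from 1438 to 1891 RPKM in the 4 DIG1 libraries and from 0.551 to 1.90 in the other 6, and AT5G50360 had 4879 and 2685 RPKM in DIG2 at 4 h and at most 2.54 in the other 4 libraries of that table. A different locus, AT3G45810, appears in the DIG1 sample titles and has no row here. Whole reads, recovered from the steps between RPKM values, came on listed genes to between 9864873 and 15667878 per library at 4 h and between 12137013 and 18140519 at 10 d. Replicate 1 of DIG1 at 4 h stood apart in ABA-induced genes of seed type: the 4 measured of a list of 6 summed to 362 RPKM there and to 12.9 in replicate 2, against 31.2 and 27.2 in DIG2 and 13.3 and 7.87 in GFP.

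**Figure D1:**
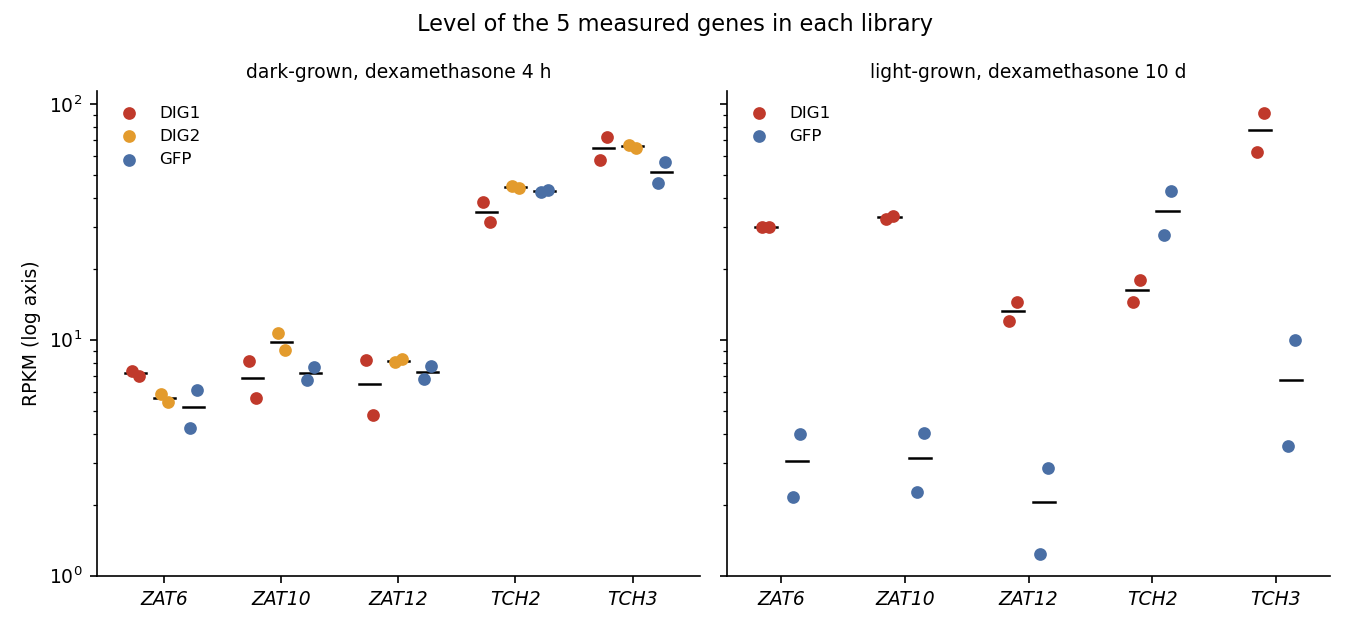
RPKM (log axis) of the 5 measured genes in every library, DIG1, DIG2 and GFP at 4 h (left) and DIG1 and GFP at 10 d (right); points are libraries and bars the mean of 2. At 4 h the libraries of the lines lie close together, and at 10 d the DIG1 points lie above the GFP points for ZAT6, ZAT10, ZAT12 and TCH3 and below them for TCH2.

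The light-grown experiment asked which genes differ in DIG1 seedlings after 10 d on dexamethasone. Among the zinc finger genes, ZAT6, a regulator also known from phosphate supply and root growth, had 30.2 and 30.1 RPKM in DIG1 libraries, against 2.16 and 3.97 in GFP libraries. Every DIG1 library was far above every GFP library, and the DIG1 pair differed by less than the GFP pair. The log2 change was 3.15 ± 0.26 (SE; 95% interval 2.50 to 3.80; limma adjusted p = 0.000641), and 89 of the 17433 genes had a higher change.

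ZAT10, a transcriptional repressor, had 32.6 and 33.6 RPKM in DIG1 libraries, against 2.26 and 4.04 in GFP libraries. Its values were near those of ZAT6 in each library of the table. The log2 change was 3.25 ± 0.25 (95% interval 2.62 to 3.88; limma adjusted p = 0.000542), and 77 genes had a higher change.

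ZAT12, known from oxidative and high-light stress, was the lowest of the 5 genes in all 4 libraries, at 12.1 and 14.5 RPKM in DIG1 libraries, against 1.24 and 2.85 in GFP libraries. The groups did not overlap. The log2 change was 2.51 ± 0.33 (95% interval 1.67 to 3.35; limma adjusted p = 0.0023). The lower of its GFP values rests on 12 recovered reads, the fewest behind any value of these genes.

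The calmodulin-like genes went in opposite directions. TCH3 had 62.4 and 91.8 RPKM in DIG1 libraries, against 3.55 and 9.97 in GFP libraries, with the widest gap between GFP replicates of the 5 genes on the log2 scale. Its log2 change was the largest of the 5, 3.55 ± 0.47 (95% interval 2.36 to 4.74; limma adjusted p = 0.0023), and 56 genes had a higher change. The size rests on which GFP library is used: the log2 change was 2.86 with GFP replicate 1 left out and 4.23 with GFP replicate 2 left out, and it was called in both cases.

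TCH2 had 14.4 and 18.0 RPKM in DIG1 libraries, against 27.7 and 42.7 in GFP libraries. It was lower in both DIG1 libraries than in both GFP libraries. The log2 change was −1.07 ± 0.23 (95% interval −1.66 to −0.49; limma adjusted p = 0.0114).

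The order of the 5 genes by level therefore differed between the lines. In DIG1 the order was TCH3, ZAT10, ZAT6, TCH2 and ZAT12, of which only the neighbours TCH2 and ZAT12 overlapped. In GFP it was TCH2, TCH3, ZAT10, ZAT6 and ZAT12, and each neighbour after TCH2 overlapped the next. These overlaps are between values of different libraries: within each line, both libraries had the same order. The mean RPKM of ZAT10 was above 78.5% of listed genes in DIG1 and above 14.2% in GFP; for TCH2 the shares were 59.6% in DIG1 and 80.8% in GFP. The authors' deposited table gives the same directions, with a log2 fold change of 3.25 for ZAT6, 3.34 for ZAT10, 2.63 for ZAT12, 3.49 for TCH3 and −1.12 for TCH2, and an FDR of at most 8.42e-06.

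Of the 5 measured genes, 4 were called higher and 1 lower at 10 d, where the shares over all genes were 31.9% and 31.2%. Both DIG1 libraries lay above both GFP libraries in those 4 (44.2% of all genes did so) and below in TCH2 (40.2%). The median log2 change was 3.15 over the 5 genes and 0.05 over all genes. Each of the 5 kept its call when any 1 of the 4 libraries was left out.

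**Figure D2:**
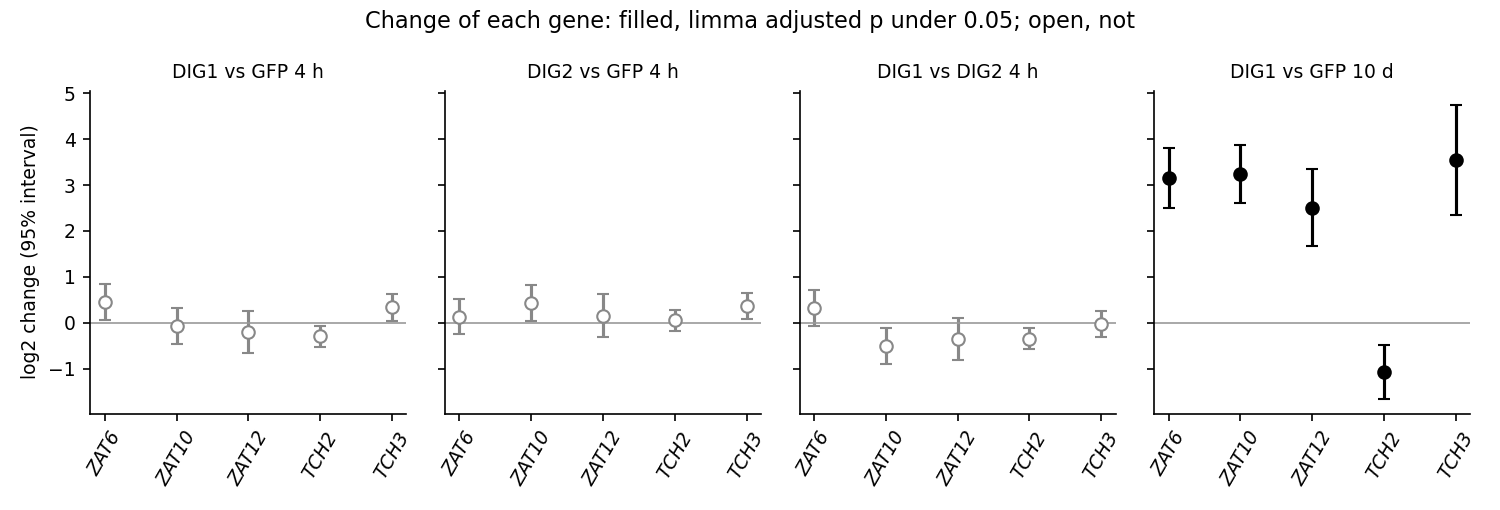
Log2 change of the 5 genes on the log2(RPKM + 0.5) scale with its 95% interval in the 3 comparisons at 4 h and in DIG1 against GFP at 10 d; filled points passed the test. All points at 4 h are open and lie between −0.50 and 0.46, and at 10 d ZAT6, ZAT10, ZAT12 and TCH3 lie between 2.51 and 3.55 and TCH2 at −1.07.

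The replicates of GFP at 10 d differed in these genes more than in most. Replicate 2 was above replicate 1 in 5 of 5, by 0.75 for ZAT6, 0.72 for ZAT10, 0.95 for ZAT12, 0.61 for TCH2 and 1.37 for TCH3 on the log2 scale, where the median absolute difference over all genes was 0.15. Only 0.338% of genes had a difference as high as that of TCH3. Replicate 2 was also the higher in 6 of 7 rapid general stress genes, with a median difference of 0.58, and in 8702 of all 17433 genes. In DIG1 at 10 d the differences ran from 0.00 for ZAT6 to 0.55 for TCH3. Among the dark-grown groups the differences ran from −0.71 for ZAT12 to 0.32 for TCH3 in DIG1, from −0.23 for ZAT10 to 0.04 for ZAT12 in DIG2 and from 0.03 for TCH2 to 0.49 for ZAT6 in GFP.

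**Figure D3:**
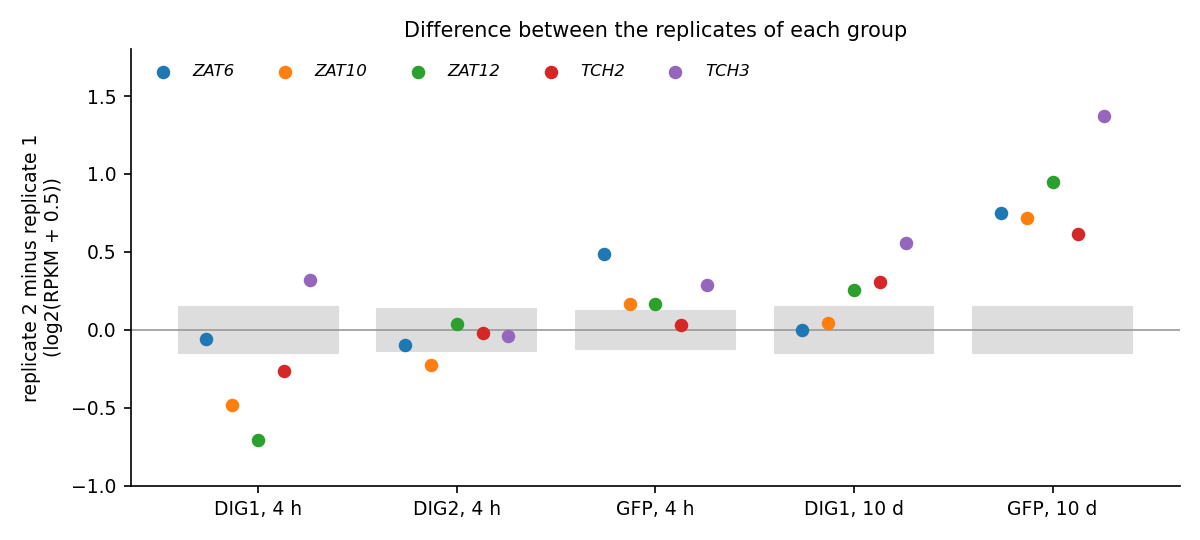
Difference of replicate 2 minus replicate 1 in log2(RPKM + 0.5) for the 5 genes in each group; the grey band is the median absolute difference over all genes in either direction. All 5 points of GFP at 10 d lie above the band, between 0.61 and 1.37.

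The dark experiment asked which genes differ 4 h after dexamethasone. None of the 5 genes was called in DIG1 against GFP, where limma called 3.01% of all genes higher and 5.54% lower; 3 of the 5 had an unadjusted p under 0.05, and limma-voom on recovered reads also called 0. ZAT6 had 7.34 and 7.04 RPKM in DIG1 and 4.23 and 6.13 in GFP, a log2 difference of 0.46 ± 0.18 (limma adjusted p = 0.155). TCH3 had 57.8 and 72.4 RPKM in DIG1 and 46.3 and 56.6 in GFP, a difference of 0.33 ± 0.13 (limma adjusted p = 0.156). For these genes both DIG1 libraries lay above both GFP libraries, as in 25.2% of all genes.

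TCH2 had 38.2 and 31.7 RPKM in DIG1 and 42.3 and 43.2 in GFP, a difference of −0.29 ± 0.10 (limma adjusted p = 0.123), with both DIG1 libraries below GFP, as in 26.5% of all genes. ZAT10 had 8.10 and 5.65 RPKM in DIG1 and 6.76 and 7.63 in GFP, and ZAT12 had 8.18 and 4.81 in DIG1 and 6.84 and 7.73 in GFP. In ZAT10 and ZAT12 the DIG1 libraries lay on either side of the GFP libraries, and the intervals of the log2 difference ran from −0.47 to 0.31 and from −0.66 to 0.27. Differences of the size seen at 10 d lie outside all 5 intervals at 4 h in DIG1, the highest bound being 0.85 for ZAT6. The ages, light and doses of the experiments differ, so the values stand side by side without a test.

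In DIG2 against GFP none of the 5 genes was called either, where limma called 7.37% of all genes higher and 7.48% lower; 2 of the 5 had an unadjusted p under 0.05 and limma-voom called 0. TCH3 had 66.9 and 65.1 RPKM in DIG2 and 46.3 and 56.6 in GFP, a log2 difference of 0.36 ± 0.13 (limma adjusted p = 0.0873). The authors' deposited table gives TCH3 an FDR of 0.0453 in this comparison. ZAT10 had 10.6 and 9.02 RPKM in DIG2 and 6.76 and 7.63 in GFP, a difference of 0.42 ± 0.18 (limma adjusted p = 0.141). With the replicate number as a block, 1 of the 5 genes, TCH3, was called (limma adjusted p = 0.047).

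ZAT6 had 5.87 and 5.45 RPKM in DIG2, between the GFP values of 4.23 and 6.13. ZAT12 had 8.05 and 8.27 RPKM in DIG2 and 6.84 and 7.73 in GFP, and TCH2 had 44.8 and 44.1 in DIG2 and 42.3 and 43.2 in GFP. In TCH3, ZAT10, ZAT12 and TCH2, 4 of the 5 genes, both DIG2 libraries lay above both GFP libraries, as in 29.3% of all genes, and in 0 of the 5 genes below, as in 30.9%. The DIG1 and DIG2 comparisons share the GFP libraries.

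DIG1 was also compared with DIG2 directly. None of the 5 genes was called, where limma called 0.622% of all genes higher and 1.74% lower; 2 of the 5 had an unadjusted p under 0.05 and limma-voom called 0. For ZAT10 the log2 difference of DIG1 minus DIG2 was −0.50 ± 0.18 (limma adjusted p = 0.18), with 8.10 and 5.65 RPKM in DIG1 against 10.6 and 9.02 in DIG2. For TCH2 it was −0.35 ± 0.10 (limma adjusted p = 0.119), with 38.2 and 31.7 RPKM in DIG1 against 44.8 and 44.1 in DIG2. These 2 genes had both DIG1 libraries below both DIG2 libraries, as 23.8% of all genes did, and ZAT6 had both above, as 22.2% did. TCH3 differed by −0.03, with an interval from −0.32 to 0.26.

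In the dark-grown seedlings TCH3 was the highest of the 5 genes and TCH2 the next in all 6 libraries. In GFP they were followed by ZAT12 and ZAT10, which overlapped, and by ZAT6, which overlapped neither. ZAT12 was above ZAT10 within both GFP libraries. In DIG2 the order after TCH2 was ZAT10, ZAT12 and ZAT6 without overlap. In DIG1 the 3 ZAT genes overlapped, and their order was opposite in its libraries. Recovered reads per library at 4 h ranged from 44 to 154 for the ZAT genes, from 272 to 533 for TCH2 and from 824 to 1455 for TCH3, and the SE of a log2 difference ran from 0.18 to 0.21 for the ZAT genes, against 0.10 for TCH2 and 0.13 for TCH3.

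The genes around these 8 in the cold and touch pathways are given from lists chosen with earlier results of these data known, as counts of called genes among those measured. For every list at 10 d, the shares over all genes were 31.9% called higher and 31.2% called lower. The CBF target list holds 12 cold-regulated genes, of which 10 were measured at 10 d. Of these, 0 were called higher and 7 lower in DIG1 than in GFP (0 higher at an unadjusted p under 0.05 in limma and 0 with limma-voom), and the median log2 change was −3.01. ERD10, a dehydrin, averaged 0.962 ± 0.688 RPKM in DIG1 and 85.9 ± 0.999 in GFP (SD, n = 2; log2 change −5.97, limma adjusted p = 0.000293). KIN1 was listed at 0.731 and 0 RPKM in DIG1 and averaged 39.2 ± 7.91 in GFP, and COR6.6 averaged 3.61 ± 3.96 in DIG1 and 99.9 ± 17.4 in GFP. KIN1 and COR6.6 (KIN2) are near-identical neighbours, so how reads were split between them is uncertain. RD29A averaged 12.9 ± 15.6 RPKM in DIG1 and 16.6 ± 3.75 in GFP and was not called.

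The CBF targets also differed between the DIG1 replicates at 10 d. All 10 were lower in replicate 2, by a median of 1.15 on the log2 scale, and summed to 220 RPKM in replicate 1 and 104 in replicate 2, against 755 and 877 in GFP. The GFP libraries were above both DIG1 libraries in this sum. Over all genes, 8901 of 17433 were higher in DIG1 replicate 2 than in replicate 1. Other lists given below differed too. Replicate 2 was the higher in 1 of 6 root markers and 0 of 3 ABA-induced genes of seed type. It was the higher in 5 of 6 touch and calmodulin-like genes and 4 of 4 genes of photosynthetic tissue.

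Among 16 regulators of the CBF genes, 15 were measured at 10 d, with 8 called higher, 5 lower and a median log2 change of 0.40. Over all genes, 31.9% were called higher and 31.2% lower, so the lower count lies near that share. PRR7 and PRR5, clock repressors, averaged 100.04 ± 0.26 and 4.23 ± 0.394 RPKM in DIG1 and 22.6 ± 0.565 and 0.593 ± 0.00583 in GFP. PIF7, a phytochrome-interacting factor that represses CBF genes, averaged 1.76 ± 1.00 RPKM in DIG1 and 25.4 ± 1.35 in GFP (log2 change −3.60, limma adjusted p = 0.00074). Genes known as activators of CBF expression did not share a direction: ICE1 (0.80), ICE2 (0.40) and CAMTA3 (0.93) were higher, and CAMTA1 (−1.36), CAMTA2 (−0.39), CCA1 (−1.18) and LHY (−2.02) were lower, as log2 changes of called genes.

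Of 9 rapid general stress genes, 7 were measured at 10 d, with 6 called higher, 0 lower (0 lower at an unadjusted p under 0.05 in limma and 0 with limma-voom) and a median log2 change of 1.87. ERF104 averaged 56.8 ± 13.1 RPKM in DIG1 and 3.26 ± 1.76 in GFP (log2 change 3.99, limma adjusted p = 0.000753). ERF6 averaged 6.55 ± 0.351 in DIG1 and 0.826 ± 0.483 in GFP, and WRKY40 4.45 ± 0.682 in DIG1 and 0.733 ± 0.538 in GFP. MYB44 averaged 25.6 ± 3.13 RPKM in DIG1 and 26.3 ± 3.80 in GFP and was not called.

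Of 7 early cold transcription factors other than the CBF genes, 6 were measured at 10 d, with 3 called higher, 1 lower and a median of 0.56. CZF1, a CCCH zinc finger gene, averaged 36.8 ± 3.25 RPKM in DIG1 and 8.80 ± 0.887 in GFP, ERF5 7.91 ± 0.386 in DIG1 and 2.03 ± 0.633 in GFP, and HSFC1 1.12 ± 0.444 in DIG1 and 6.65 ± 0.358 in GFP. Without DIG1 replicate 2, 2 of the 6 were called lower. Of 8 relatives of the ZAT genes 2 were measured, and AZF2 was called higher (log2 change 1.97) while ZAT5 was not (0.12). Of 5 DREB relatives only DREB2A, a factor of drought and heat response, was measured at 10 d, and it was called higher, at 9.59 ± 1.03 RPKM in DIG1 and 2.01 ± 0.734 in GFP.

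The touch and calmodulin-like list holds 10 genes, of which 6 were measured at 10 d, with 1 called higher, 3 lower and a median log2 change of −0.41. CML41 averaged 7.71 ± 2.40 RPKM in DIG1 and 0.628 ± 0.126 in GFP (log2 change 2.84, limma adjusted p = 0.000753). CML10 was listed at 0 and 0.367 RPKM in DIG1 and averaged 36.0 ± 5.35 in GFP. CAM2, the calmodulin gene also named TCH1, averaged 19.2 ± 1.11 RPKM in DIG1 and 41.7 ± 3.69 in GFP, and CML9 55.8 ± 3.99 in DIG1 and 88.5 ± 5.34 in GFP. XTH22, the touch gene TCH4, averaged 21.7 ± 9.63 RPKM in DIG1 and 15.6 ± 8.62 in GFP and was not called.

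**Figure D4:**
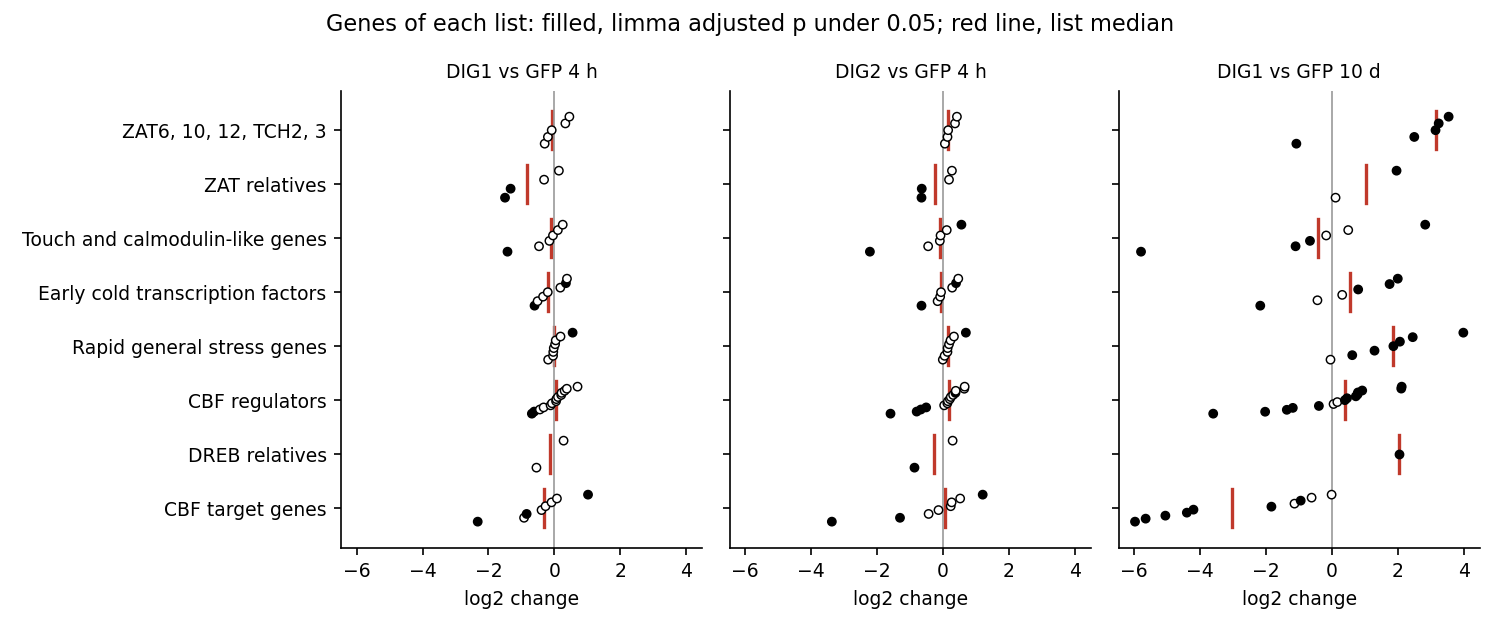
Log2 change (log2(RPKM + 0.5) scale) of the genes of each list in DIG1 and DIG2 against GFP at 4 h and in DIG1 against GFP at 10 d; filled points passed the test and red lines are list medians. At 10 d the CBF targets lie below 0, with a median of −3.01, and the rapid general stress genes at −0.04 or above, with a median of 1.87.

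At 4 h the lists were counted in the same way. For every list at 4 h, the shares over all genes were 3.01% called higher and 5.54% lower in DIG1 against GFP. In DIG2 against GFP they were 7.37% and 7.48%, and in DIG1 against DIG2 0.622% and 1.74%. Of the 8 measured CBF targets, 1 was higher and 2 lower in each line. RD29A was higher, at 32.2 ± 0.694 RPKM in DIG1, 37.2 ± 9.84 in DIG2 and 15.6 ± 1.99 in GFP. COR6.6 was lower, at 3.12 ± 0.0662 RPKM in DIG1, 1.25 ± 0.131 in DIG2 and 17.8 ± 4.09 in GFP, and ERD10 was lower, at 35.7 ± 1.75 in DIG1, 25.9 ± 3.90 in DIG2 and 65.0 ± 13.1 in GFP. In DIG1 against GFP, 1 of the CBF targets was called lower without GFP replicate 2 and without DIG1 replicate 2. In DIG1 against DIG2, 1 CBF target was called higher, COR6.6 (log2 difference 1.05, limma adjusted p = 0.0197), and 1 lower, COR413IM1 (−1.44, limma adjusted p = 0.0254), at 3.03 and 1.57 RPKM in DIG1 and 8.58 and 5.42 in DIG2. The higher call was lost without DIG1 replicate 1, DIG1 replicate 2 or DIG2 replicate 2 and with limma-voom, and the lower call without DIG1 replicate 2 or DIG2 replicate 1 and with no variance trend. COR413IM1 and COR413IM2 are near-identical copies, so how reads were split between them is uncertain.

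Among the 4 measured relatives of the ZAT genes at 4 h, AZF3 and AZF1 were lower in both lines. In DIG2 these calls were near the threshold (limma adjusted p = 0.0367 for AZF3 and 0.0484 for AZF1). Their count moved in 11 of the 14 alternatives for DIG2. AZF3 averaged 2.41 ± 0.350 RPKM in DIG1, 4.72 ± 0.596 in DIG2 and 7.73 ± 1.29 in GFP, and AZF1 2.76 ± 0.300 in DIG1, 4.80 ± 1.36 in DIG2 and 7.66 ± 0.248 in GFP. AZF3 was also lower in DIG1 than in DIG2 (log2 difference −0.84, limma adjusted p = 0.0422), but this call was lost whichever of the 6 libraries was left out, with limma-voom, with no variance trend and in a fit of those groups alone. In DIG2 against GFP, 0 of the 4 were called lower without GFP replicate 1, without GFP replicate 2 or without DIG2 replicate 1, and 1 without any 1 of the other 3 libraries.

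Of the 14 measured CBF regulators, 0 were called higher and 2 lower in DIG1 against GFP at 4 h (3 higher at an unadjusted p under 0.05 in limma, 0 with limma-voom and 1 with no variance trend). In DIG2 against GFP, 1 was called higher and 4 lower, and 3 higher with limma-voom or with median-ratio scaling of the libraries. CAMTA1, which was lower in both, averaged 12.8 ± 0.343 RPKM in DIG1, 12.9 ± 0.193 in DIG2 and 20.9 ± 1.16 in GFP. CCA1, a clock factor, averaged 5.55 ± 0.615 in DIG1, 2.55 ± 0.0751 in DIG2 and 8.72 ± 0.270 in GFP. In DIG1 the 2 lower calls became 1 without GFP replicate 1, DIG1 replicate 1 or DIG1 replicate 2 and 0 without GFP replicate 2. In DIG2 the 1 higher call, EIN3, became 0 without GFP replicate 1, GFP replicate 2 or DIG2 replicate 1 and 3 without DIG2 replicate 2.

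Of the 6 measured touch and calmodulin-like genes, CML10 was called lower at 4 h in both lines, at 5.6 and 4.41 RPKM in DIG1, 1.34 and 4.87 in DIG2 and 15.7 and 12.8 in GFP. In DIG1 that call (limma adjusted p = 0.048) was lost without GFP replicate 1, GFP replicate 2, DIG1 replicate 1 or DIG1 replicate 2. XTH22 was called higher in DIG2, at 40.5 and 33.4 RPKM in DIG2 against 27.6 and 22.3 in GFP, and was lost without GFP replicate 2 or DIG2 replicate 1. ERF104 was the gene called among 8 rapid general stress genes in both lines, at 23.6 and 22.3 RPKM in DIG1, 26.8 and 23.9 in DIG2 and 14 and 17 in GFP; in DIG1 it was lost without GFP replicate 1, DIG1 replicate 1 or DIG1 replicate 2. Of the 7 early cold factors 1 was called higher (MYB73) and 1 lower (RAV1) in each line. Over the 14 alternatives, the list count of 1 changed in DIG1 6 times for CML10, 5 for MYB73 and 4 each for RAV1 and ERF104. In DIG2 it changed 4 times for MYB73, 3 for XTH22, 2 for RAV1 and 1 for ERF104. The call of MYB73 was lost in DIG1 without any 1 of the DIG1 and GFP libraries and in DIG2 without DIG2 replicate 1, GFP replicate 1 or GFP replicate 2. The call of RAV1 was lost in DIG1 without DIG1 replicate 1, GFP replicate 1 or GFP replicate 2 and in DIG2 without DIG2 replicate 1 or GFP replicate 1. DREB2A, 1 of 2 measured DREB relatives, was called lower in DIG2 (log2 change −0.87, limma adjusted p = 0.0164) and lost without GFP replicate 1, DIG2 replicate 1 or DIG2 replicate 2.

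Markers of tissues moved with the light-grown comparison, where limma called 31.9% of all genes higher and 31.2% lower. Of 6 measured root markers of a list of 8, 5 were called lower in DIG1, and they summed to 9.96 and 4.31 RPKM in DIG1 and to 38.3 and 54.1 in GFP; none was listed at 0. Of 4 genes of photosynthetic tissue, 3 were called lower, and they summed to 11070 and 13711 RPKM in DIG1 and to 36264 and 32092 in GFP. In whole seedlings fewer cells of a type and less RNA per cell cannot be told apart, and the part of these markers in the changes of the 5 genes was not tested. In the dark-grown seedlings the shares of all genes called were smaller. They were 3.01% higher and 5.54% lower in DIG1 and 7.37% and 7.48% in DIG2, each against GFP. There the root markers summed to 648 and 541 RPKM in DIG1, 773 and 964 in DIG2 and 754 and 719 in GFP, with 3 of 8 called lower in DIG1. Photosynthetic genes summed to 13840 and 8436 RPKM in DIG1, 12134 and 12298 in DIG2 and 15441 and 17879 in GFP, and 2 of 4 were called lower in each line, LHCB2.1 (log2 change −1.38 in DIG1 and −1.81 in DIG2) and RBCS1B (−0.91 in DIG1 and −1.32 in DIG2). Of the guard cell markers, 4 were measured at 10 d, where KAT1 (−1.73) and SLAC1 (−0.89) were called lower and FAMA (0.33) higher, with sums of 28.6 and 28.3 RPKM in DIG1 and 34.4 and 36.6 in GFP. At 4 h 3 of them were measured and KAT1 was called lower in each line (−1.21 in DIG1 and −1.32 in DIG2), with sums of 17.5 and 15.7 RPKM in DIG1, 17.1 and 17.9 in DIG2 and 28.7 and 27.3 in GFP. Of 2 phloem markers, SUC2 was called lower at 10 d (−1.21) and APL was not called (0.0041), with sums of 46.2 and 36.9 RPKM in DIG1 and 80.9 and 77.4 in GFP, and neither was called at 4 h. Of the ABA-induced genes of seed type, 4 were measured at 4 h, and RD29B was called higher in each line (1.97 in DIG1 and 2.36 in DIG2). It averaged 13.5 ± 11.8 RPKM in DIG1, 14.1 ± 0.441 in DIG2 and 2.39 ± 0.651 in GFP (SD, n = 2). The DIG1 libraries differed 4.27-fold in RD29B, with replicate 1 the higher. RAB18 was called lower at 10 d (−2.33), 1 of 3 measured there.

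The genes whose pattern was most like that of each of the 5 were ranked by Pearson r over the 10 libraries, on log2(RPKM + 0.5) minus the mean of the GFP libraries of the same table, among 16153 genes. The DIG1 libraries at 10 d lie far from the others in these values, and so many genes scored high: 1064 reached an r of 0.95 with ZAT6, 1224 with ZAT10, 576 with ZAT12, 847 with TCH3 and 34 with TCH2. The leading genes were DTX1, ECT1 and ADF9 for ZAT6 (r from 0.994 to 0.997), UGT74F2, SEN1 and ESC for ZAT10 (0.998 each), and NUDT4, AT2G27580 and AT1G07985 for ZAT12 (0.994 to 0.998). They were ABCC3, WRKY25 and PSKR1 for TCH3 (0.993 to 0.994) and AT2G22122, AT4G33770 and CID6 for TCH2 (0.970 to 0.971).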

How the data were processed

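PolyA RNA of 10 libraries was sequenced from a stranded mRNA kit, per the labels' protocols. Per the submitters' processing notes, the genome build was TAIR10, and edgeR 3.6.2 and HTSeq 0.5.4 were used. No source used here names the aligner. The authors deposited 1 table per experiment with RPKM per gene and library and, per the file headers, a log2 fold change and an FDR (an adjusted p-value) for each line against GFP. The first RPKM column shares its field with the locus and was split off.

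Log2(RPKM + 0.5) was tested with limma 3.58.1 in R 4.3.3 (variance trend, two-sided, Benjamini-Hochberg over all genes of the table, threshold 0.05), on 6 libraries at 4 h and 4 at 10 d. The fit was tested on simulated data. Whole reads were recovered from RPKM steps (tolerance 0.001 read; 99.99% of genes whole in each table); all but 37 genes at 4 h and 171 at 10 d reached 2 CPM in at least 2 libraries. Alternatives were the pseudocount, a minimum mean of 1 RPKM, median-ratio scaling, no variance trend, the replicate block, fits of the groups compared, limma-voom on recovered reads and leaving out each library. The genes and lists were chosen with earlier results of these data known; beyond the 8 genes, the named genes were up to 3 per list and comparison with the largest called change and groups that did not overlap, and others named were chosen after their values were seen.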

Additional observations from a re-analysis of the deposited data

How the results depend on the processing

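At 10 d the 4 higher and 1 lower calls among the measured genes held in all 11 alternatives, with log2 changes over the libraries left out from 2.78 to 3.53 for ZAT6, 2.89 to 3.61 for ZAT10, 2.03 to 2.98 for ZAT12, 2.86 to 4.23 for TCH3 and −1.38 to −0.77 for TCH2. At 4 h the count of called genes stayed 0 in each comparison, except for 1 (TCH3) in DIG2 against GFP with the replicate block. Same-numbered replicates deviated together with r from −0.01 to 0.16 over genes, which cannot decide whether the numbers pair the samples. The block changed no other call of the 5 genes. At 10 d it lowered the SE of all 5, for TCH3 from 0.47 to 0.21 and for TCH2 from 0.23 to 0.13. The 4 h log2 changes that changed sign were those of genes that were not called: over the libraries left out, DIG1 against GFP ran from −0.32 to 0.16 for ZAT10 and −0.55 to 0.16 for ZAT12, DIG2 against GFP from −0.11 to 0.38 for ZAT6, and DIG1 against DIG2 from −0.19 to 0.13 for TCH3 and −0.70 to 0.0039 for ZAT12; the cause was not tested. Of 265 log2 changes under alternatives, 258 kept direction and side of the threshold. Of 742 counts of called list genes, 94 moved, by over 1.5 times or between 0 and another count. Over all genes, no variance trend gave 329 higher and 713 lower calls for DIG1 (522 and 962 in the main test), 762 and 933 for DIG2 (1281 and 1300) and 38 and 111 for DIG1 against DIG2 (108 and 302), for which a fit of those groups alone gave 65 and 206. Leaving out a library gave 141 to 536 higher and 335 to 1043 lower calls for DIG1 at 4 h, 406 to 1311 and 509 to 1338 for DIG2, and 20 to 87 and 88 to 207 for DIG1 against DIG2. At 4 h the ZAT genes had 44 to 154 reads per library, and their SEs were above those of TCH2 and TCH3.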
